A study of Rattus norvegicus with 6 samples.

Results

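miR-210 is the microRNA (miRNA) best known as a marker of low oxygen in cells. It is measured here as its mature arms rno-miR-210-3p and rno-miR-210-5p (miR-210-3p and miR-210-5p below), 2 of the 719 rat miRNAs on the array. The probes were taken by these names, and the miRNA itself was selected on the measured difference of its 3p arm between IL-8 and control arrays. miR-210-3p was well above background on all 6 arrays by 1 of its 2 probes, and miR-210-5p on none. The samples were rat primary skeletal muscle cells (RSkMC) from limb muscle of newborn animals, a commercial stock frozen at an early passage. They differentiated for 11 days in medium holding 2% horse serum, without interleukin-8 (control, 3 samples) or with recombinant interleukin-8 (IL-8) at 1 ng/ml (3 samples). Both groups share cell stock, medium and day. IL-8 is a chemokine that attracts neutrophils. No oxygen level is among the labels, and no sample is labelled as hypoxic. The growth text mentions IL-8 for all 6 samples, while titles and agent labels call 3 of them untreated, and the titles were followed. Total RNA (100 ng per sample) was labelled with the dye Cy3 and hybridised to 1-colour arrays, 1 array per sample.

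In most cells miR-210 is transcribed when hypoxia-inducible factor (HIF) accumulates and binds near its gene. The 3p arm is the main product. It is known to repress the iron-sulfur cluster scaffold Iscu and other mitochondrial proteins, which lowers respiration, and to repress ephrin-A3 in endothelial cells. In cultured myoblasts miR-210 is known to rise with myogenic differentiation, and it is described as protecting muscle cells from mitochondrial stress.

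The miR-210 hairpin is shown first because both members are cut from it, and its capitals mark the 5p arm (bases 28 to 49) and the 3p arm (bases 66 to 87). The sequence is RefSeq's, on the minus strand at chr1:205755923-205756032 in build GRCr8. In the same build the gene Mir210 overlaps the long non-coding RNA gene LOC102553043, and the nearest protein-coding genes are Rassf7 and Phrf1. The gene Mir3574 overlaps Mir210 on the opposite strand. Whether the hairpin lies wholly within LOC102553043, and in an exon or an intron of it, was not analysed here.
Mir210 hairpin: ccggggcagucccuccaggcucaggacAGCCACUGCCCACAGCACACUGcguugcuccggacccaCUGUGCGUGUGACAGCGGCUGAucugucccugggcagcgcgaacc

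The mature arms and their antisense neighbour follow, with the seed (bases 2 to 8, the part that pairs with target messenger RNAs) in capitals. Among 693 rat mature names in the RefSeq-derived table, no other shares the seed of miR-210-3p and no other shares that of miR-210-5p. miR-3574 is the exact reverse complement of miR-210-3p.
miR-210-3p: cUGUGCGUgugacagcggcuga
miR-210-5p: aGCCACUGcccacagcacacug
miR-3574: uCAGCCGCugucacacgcacag

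Each arm has a pair of probes, shown because the results turn on which of them gave a signal. The longer probe of a pair equals the shorter plus 1 base at its end, in capitals, so the probes of an arm are not independent. The 16-base probe of miR-210-3p pairs with bases 7 to 22 of the miRNA and the 15-base probe with bases 8 to 22, so neither covers the whole seed. The longest run that the 16-base probe could pair with in any other rat mature sequence of the table was 8 bases. The array files place the miR-210-3p probes at chr1:201415728-201415742 and chr1:201415729-201415742 in build rn4, and those of miR-210-5p at chr1:201415692-201415704 and chr1:201415693-201415704. These intervals are as the files give them and hold 1 position fewer than the probe has bases.
miR-210-3p, 16-base probe: tcagccgctgtcacaC
miR-210-3p, 15-base probe: tcagccgctgtcaca
miR-210-5p, 14-base probe: cagtgtgctgtggG
miR-210-5p, 13-base probe: cagtgtgctgtgg

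The 16-base probe of miR-210-3p, with 10 spots per array, gave a weak signal on every array. Its mean processed signal (background-subtracted fluorescence) was 21.45, 22.62 and 24.21 on control arrays 1 to 3. It was 19.88, 18.15 and 18.53 on IL-8 arrays 1 to 3. All control arrays were above all IL-8 arrays on this unscaled signal. Of 60 spots, 55 were well above background by the scanner software's call, 29 of 30 in control and 26 of 30 with IL-8. With 1 outlier spot set aside, 59 of 59 spots exceeded the 99th percentile of the 434 negative control spots of the same array. The negative control median was 3.12 to 4.83 on control arrays and 4.14 to 6.03 on IL-8 arrays. Single negative control spots reached 82.5 on a control array and 18.8 on an IL-8 array. No miR-210-3p spot on a control array exceeded the highest negative control spot of its array, and 18 of 30 on IL-8 arrays did, where that highest spot was lower.

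**Figure D1:**
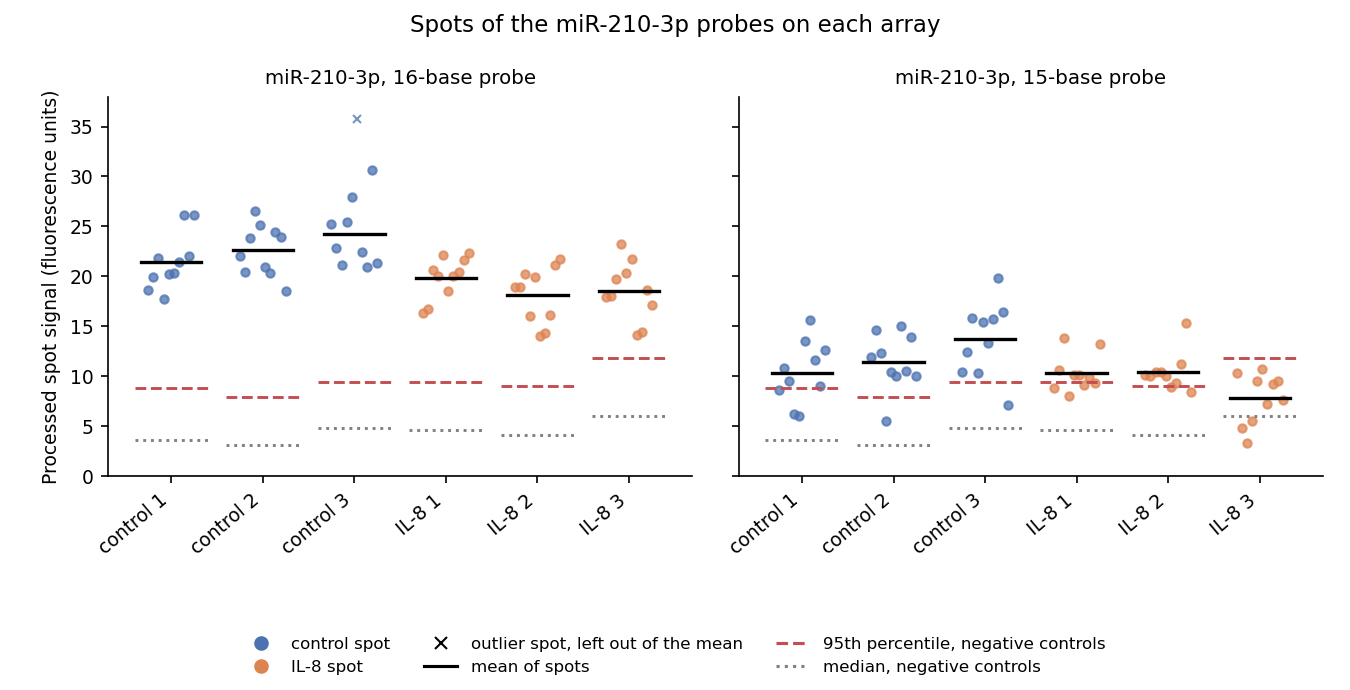
Processed signal of each spot of the 16-base (left) and 15-base (right) miR-210-3p probe on the 3 control and 3 IL-8 arrays, in fluorescence units, with the mean of the spots (black), and the 95th percentile (red, dashed) and median (grey, dotted) of the array's negative control spots. All used spots of the 16-base probe lie above the red line, while 39 of 60 spots of the 15-base probe do.

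The spots of the 16-base probe had a coefficient of variation of 10.5% to 15.7%, and the software gave a single spot a median error of 3.52 to 4.16 signal units. The standard error of an array's mean, from its own spots, was 0.048 to 0.0715 on the log2 scale. After scaling, the SD between arrays was 0.02 for control and 0.04 for IL-8 arrays (n = 3 each), below the error from spots alone. Of the 167 tested miRNAs, miR-210-3p had the 5th smallest SD in control and the 49th smallest with IL-8. The choice of miR-210 on its group difference favours a small spread, so nothing is read from these SDs or their ranks. By mean level miR-210-3p was the 16th dimmest, so it is among the weakest signals that entered the comparison.

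The 15-base probe stood closer to background. Its mean signal was 10.35, 11.45 and 13.69 on the control arrays and 10.31, 10.44 and 7.775 on the IL-8 arrays. The groups overlapped on this unscaled signal, since control array 1 was below IL-8 array 2. After scaling, before low values were set to a floor, they did not overlap. The scaled signal was 0.02353 to 0.02755 in control and 0.01441 to 0.01902 with IL-8, a log2 difference of -0.55. As the 15-base probe shares its bases with the 16-base probe, this is not separate support. The software called 3 of its 60 spots well above background, and 39 of 60 exceeded the 95th percentile of the negative controls, 25 of 30 in control and 14 of 30 with IL-8. Since this probe was not well above background on any array, the level of miR-210-3p rests on the 16-base probe alone.

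miR-210-5p, the passenger arm, gave no signal above the negative controls. All 115 spots left after 5 outliers lay below the negative control median of their array, and 0 exceeded its 95th percentile. The 14-base probe had means of -6.983, -11.12 and -10.22 in control and -6.366, -9.324 and -11.11 with IL-8. The 13-base probe had means of -8.357, -12.33 and -10.61 in control and -7.695, -10.78 and -13.3 with IL-8. For both probes the groups overlapped widely. A signal below 0 follows from background subtraction and is no level, so no fold is given for this arm. The negative controls have other sequences and lengths, so they set a reference for the array, not a floor for this probe.

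**Figure D2:**
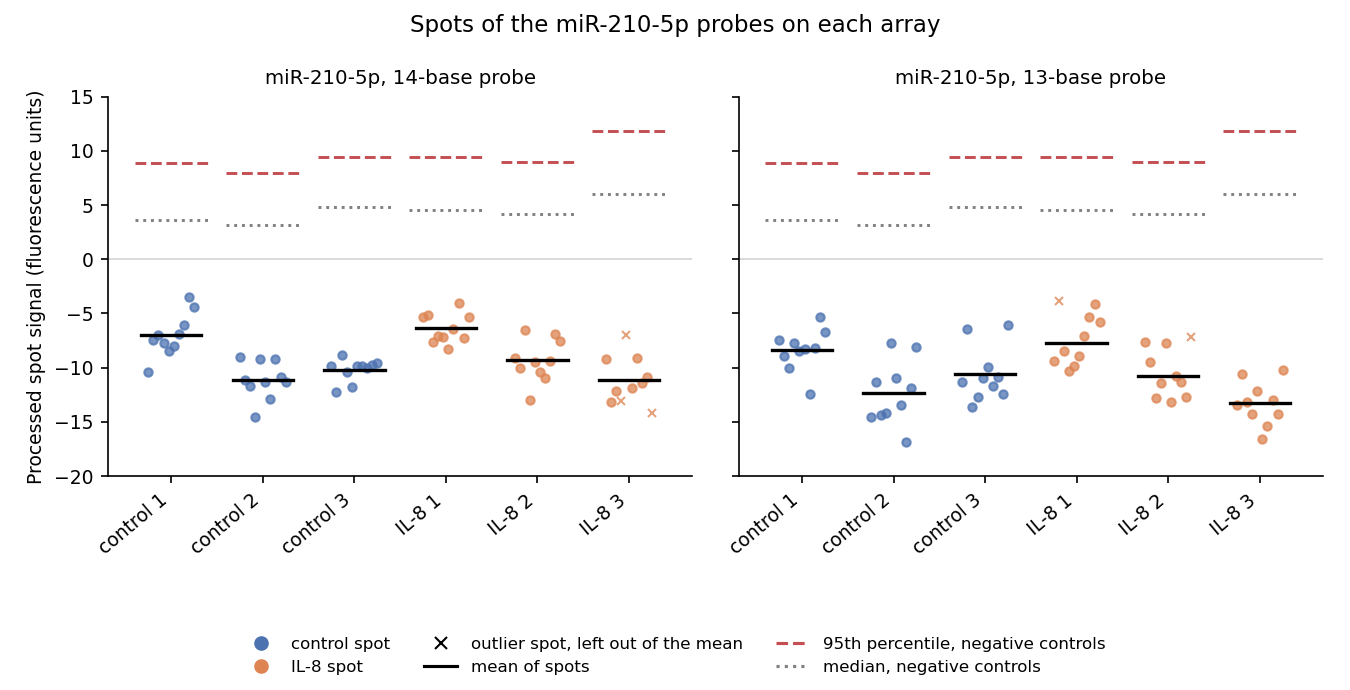
Processed signal of each spot of the 14-base (left) and 13-base (right) miR-210-5p probe on the same 6 arrays, in fluorescence units, with lines as for the 3p arm. Every spot lies below 0 and below the negative control median (grey, dotted), with control and IL-8 arrays intermixed.

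miR-3574, read from the opposite strand of the same bases, was likewise not detected. It was looked at after the miR-210 values were known. None of its 120 spots was called well above background, and all 112 spots without outlier flags lay below the negative control median. Of miR-210-3p and miR-3574, read from the same bases on opposite strands, a signal above background was found for miR-210-3p only.

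miR-210-3p is described here in the comparison in which it was first noticed, so its difference carries no test. To compare arrays, the signal was divided by the array's 75th percentile, taken over the 264 probes that all 6 arrays detected, and log2 was taken. On that scale miR-210-3p stood at -4.36, -4.39 and -4.36 in control and at -4.84, -4.92 and -4.86 with IL-8. The group means were -4.37 ± 0.02 (SD, n = 3) and -4.87 ± 0.04 (SD, n = 3). The level with IL-8 was 0.705 of control, a log2 difference of -0.50. The groups did not overlap, which the choice of miR-210 had favoured, and arrays of a group have no order. Of the 167 tested miRNAs, 50 (29.9%) had groups that did not overlap, 23 of them (13.8% of all tested) lower and 27 (16.2%) higher with IL-8. By limma at adjusted p under 0.05 12 (7.19%) were called, 6 of them (3.59%) lower. As the choice of miR-210 used this contrast, nothing is read from its place among them. In bulk RNA, fewer cells with miR-210-3p and less of it per cell cannot be told apart. The control arrays shared 1 slide and 1 scan time and the IL-8 arrays shared another slide and scan, so slide and IL-8 cannot be told apart either. Whether samples of the same group were separate cultures is not in the labels, so the spread may be technical.

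Part of this difference comes from the divisor. The probe's unscaled signal was 22.76 ± 1.39 on control arrays and 18.85 ± 0.909 on IL-8 arrays (SD, n = 3 each), 0.829 of control and a log2 difference of -0.27. The 75th percentile itself was 440.1, 475.1 and 496.8 on the control arrays and 568.9, 549.1 and 539.7 on the IL-8 arrays, a log2 difference of 0.23. So the raw signal of miR-210-3p was lower on the arrays where detected miRNAs were mostly brighter. The median of all tested miRNAs differed by 0.25 without scaling and by 0.02 with it. Relative to that median the miR-210-3p difference was -0.52 in both cases. That equality is arithmetic, since dividing an array by a constant shifts all its log2 values alike. The spike-in RNAs, control RNAs added by the submitters, differed by 0.03 in mean log2 signal between the groups. Scaled on them, the log2 difference of miR-210-3p was -0.30 and the median of all tested miRNAs 0.23. A statement on miR-210-3p against the other miRNAs and a statement on its amount per total RNA therefore have different sizes here, and the same direction.

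**Figure D3:**
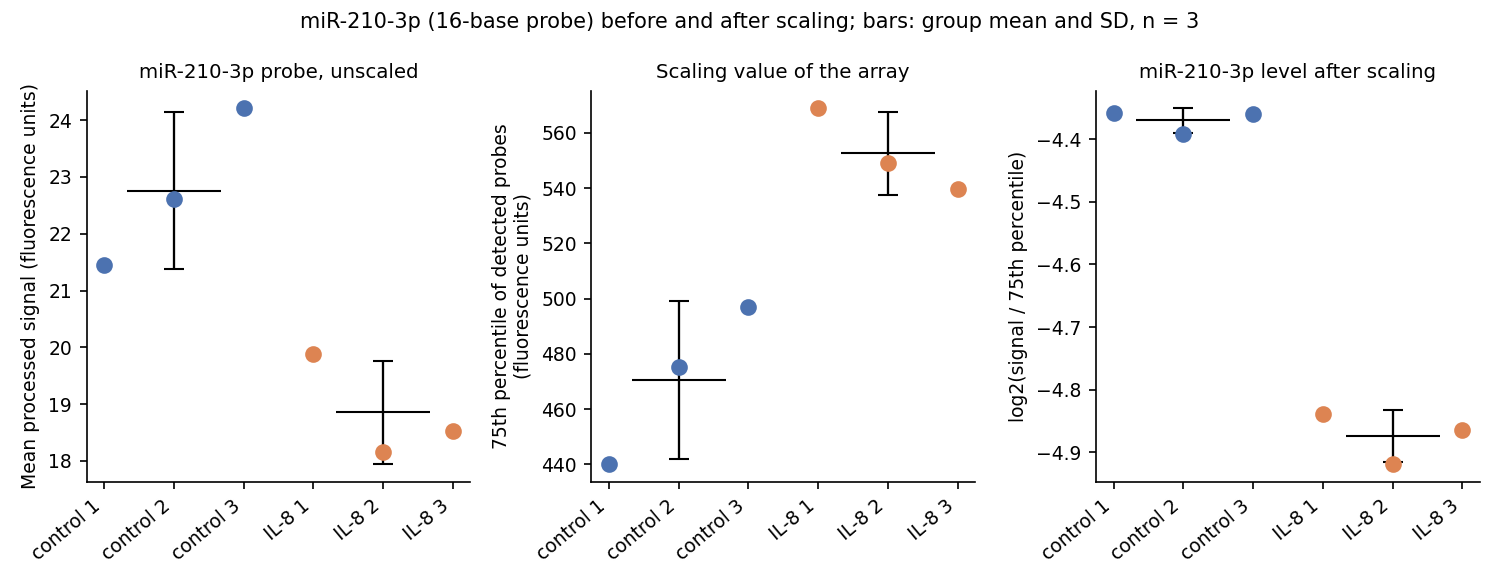
The 16-base miR-210-3p probe on each array before scaling (left, mean signal in fluorescence units), the scaling value of the array (middle, fluorescence units) and the scaled log2 level (right), with group mean and SD (n = 3). Axes do not start at 0. IL-8 arrays have the lower probe signal, 18.15 to 19.88, and the higher scaling value, 539.7 to 568.9.

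Background handling also set the size. With each array's negative control median subtracted first, a setting chosen after seeing the data, the log2 difference was -0.67. With the normexp correction and its offset of 50, which exceeds the signal of this probe, it was -0.24, and relative to the median of all tested miRNAs -0.17. With both probes averaged it was -0.32, since the 15-base probe lay at the floor of -5.45 on all IL-8 arrays.

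**Figure D4:**
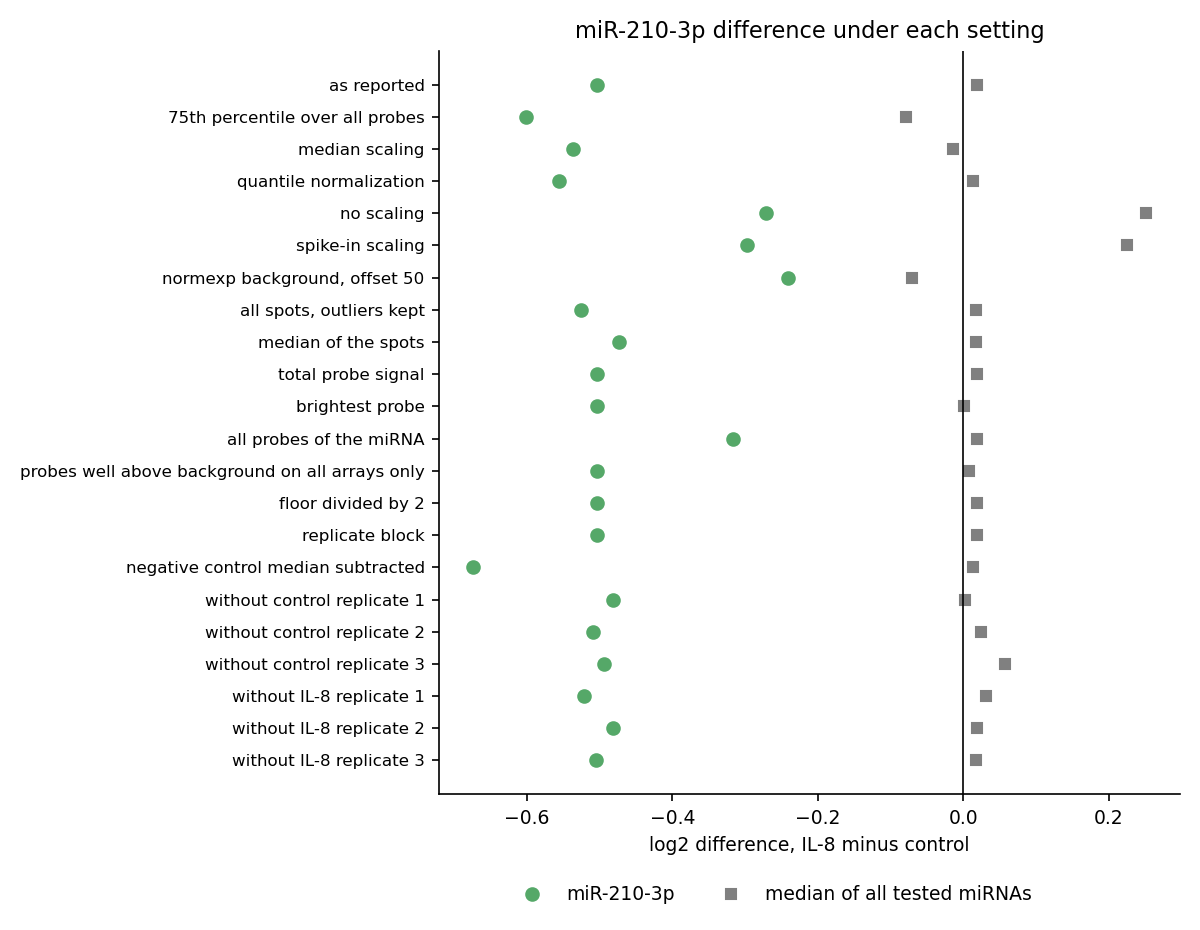
Log2 difference, IL-8 minus control, of miR-210-3p (green circles) and the median of all tested miRNAs (grey squares) as reported and under 21 other settings. miR-210-3p is below 0 in every setting shown, from -0.67 with the negative control median subtracted to -0.24 with normexp.

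The 5 tested miRNAs with the profile most like that of miR-210-3p were miR-129-1-3p, miR-129-2-3p, miR-6216, miR-132-3p and miR-1949. Likeness was the mean absolute gap between log2 values over the 6 arrays, after subtracting each miRNA's own mean, and the median gap over all tested miRNAs was 0.26. The gap was 0.03 for miR-129-1-3p, 0.05 for miR-129-2-3p, 0.08 for miR-6216, 0.08 for miR-132-3p and 0.12 for miR-1949. Because the gap is set mostly by the group difference, these are miRNAs with a like difference, and their differences are given as description.

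miR-129-1-3p, best known from brain, stood at -2.40, -2.48 and -2.32 in control and at -2.84, -2.92 and -2.86 with IL-8. miR-129-2-3p had means of -1.85 ± 0.12 and -2.32 ± 0.04 (SD, n = 3 each). miR-132-3p, which is induced by the transcription factor CREB, had means of -3.63 ± 0.10 and -3.99 ± 0.04 (SD, n = 3 each). By contrast miR-212-3p, which has the seed of miR-132-3p, had a difference of 0.06 ± 0.07 (SE), with overlapping groups. miR-6216 had means of -2.36 ± 0.20 and -2.86 ± 0.04, and miR-1949 of -3.39 ± 0.10 and -3.66 ± 0.09 (SD, n = 3 each). Only 2 of the 5 remained with normexp and 3 of the 5 with both probes of a miRNA averaged.

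The sequences of these miRNAs are shown, seed in capitals, so that their bases can be set beside those of miR-210-3p. None has the seed of miR-210-3p. The miR-129 forms share a seed and the first is the start of the second, so they may not be separate measurements. Whether the probe of either form also binds the other was not analysed here.
miR-129-1-3p: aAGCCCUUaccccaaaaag
miR-129-2-3p: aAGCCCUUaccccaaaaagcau
miR-6216: gAUACACAgaggcaggaggagaa
miR-132-3p: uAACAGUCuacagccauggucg
miR-1949: uAUACCAGgaugucagcauaguu

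Other miRNAs that are described as induced by low oxygen in cultured cells lay on both sides of 0. Of 17 such miRNAs (among them miR-23, miR-24, miR-26, miR-27, miR-103, miR-107 and miR-181 forms), 16 were tested. Of these 9 had a positive and 7 a negative difference, and their median log2 difference was 0.04 beside 0.02 over all 167 tested miRNAs. By limma with Benjamini-Hochberg adjustment 2 rose and 0 fell, where 3.59% of all tested miRNAs rose and 3.59% fell. At unadjusted p under 0.05 there were 4 of 16, all of them miR-181 forms, beside 42 of all 167. The list was chosen with earlier results of these data known, so its counts are description and nothing is concluded from them. Both that rose come from the miR-181a-1 precursor, and miR-181a-5p is made from a second locus as well.

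miR-181a-1-3p stood at -3.48, -3.45 and -3.43 in control and at -3.12, -2.95 and -3.15 with IL-8. It rose by 0.38 ± 0.07 (SE) on the log2 scale (limma adjusted p = 0.022), opposite in direction to miR-210-3p. miR-181a-5p, which is described as promoting myoblast differentiation, went from 0.31 ± 0.05 to 0.57 ± 0.04 (SD, n = 3 each), a rise of 0.26 ± 0.05 (SE, limma adjusted p = 0.032). miR-181b-5p, which has the seed of miR-181a-5p, had a difference of 0.18 ± 0.06 (SE) that did not pass (limma adjusted p = 0.123). As the list was chosen with earlier results known, these adjusted p-values are description. Nothing is concluded from the opposite directions of the miR-181 forms and miR-210-3p. Over 21 other settings the limma adjusted p ran from 0.00326 to 0.998 for miR-181a-1-3p and from 0.00112 to 0.998 for miR-181a-5p. The count of 2 fell to 0 when control replicate 2 or either of IL-8 replicates 1 and 2 was left out, and to 1 without control replicate 1 or IL-8 replicate 3. Their sequences follow, to show that the seeds differ from that of miR-210-3p.
miR-181a-1-3p: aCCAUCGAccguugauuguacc
miR-181a-5p: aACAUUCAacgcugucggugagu

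miRNAs described to act on HIF subunits or on proteins that restrain HIF, also listed with earlier results known, gave no call. Of 11, 8 were tested, with 4 higher and 4 lower with IL-8 and a median log2 difference of -0.05. By limma 0 of 8 passed at adjusted p under 0.05, where 7.19% of all tested miRNAs did, and 0 of 8 had an unadjusted p under 0.05, beside 42 of 167. miR-107-3p, which is described to repress the HIF partner Arnt and is in both lists, had a difference of -0.12 ± 0.05 (SE, limma adjusted p = 0.219). miR-22-3p, described to repress Hif1a, had one of -0.13 ± 0.06 (SE), and miR-31a-5p, a repressor of the asparagine hydroxylase that restrains HIF, one of -0.12 ± 0.06 (SE). Each of these 3 turned above 0 without scaling and with spike-in scaling. miR-138-5p and miR-18a-5p were not well above background on any array, and miR-155-5p is not among the rat miRNA names of the array.

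**Figure D5:**
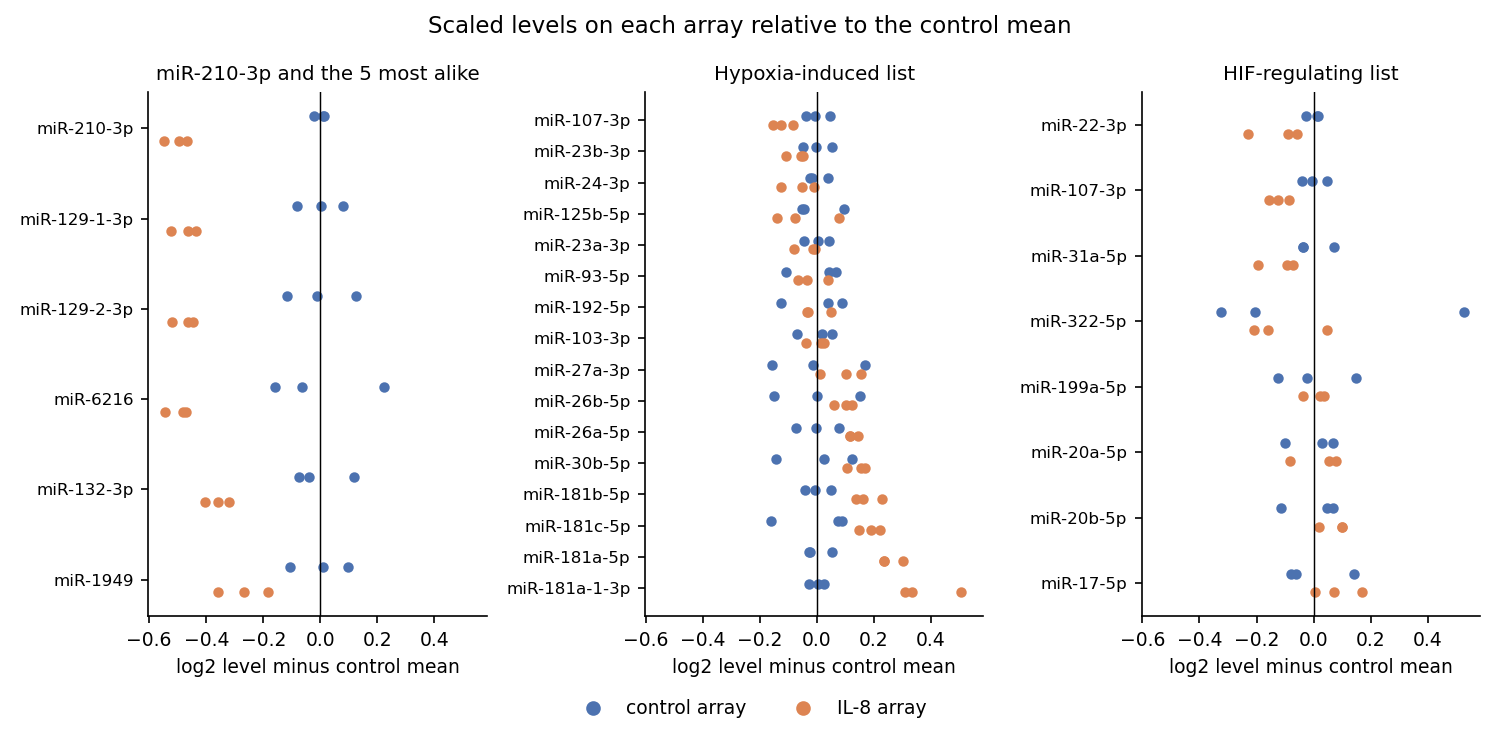
Scaled log2 level on each array minus the control mean of the same miRNA, for miR-210-3p and the 5 miRNAs most like it (left), the 16 tested miRNAs of the hypoxia-induced list (middle) and the 8 tested of the HIF-regulating list (right). Control arrays are blue and IL-8 arrays orange. The miR-181a forms lie to the right of 0 with IL-8 and miR-210-3p to the left.

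Across the series the IL-8 arrays were the brighter. Control arrays had 154 to 164 miRNAs well above background and IL-8 arrays 168 to 180. The limma test with Benjamini-Hochberg adjustment called 12 of 167 miRNAs (7.19%), of which 6 rose and 6 fell, and 42 had an unadjusted p under 0.05. That count ran from 1 to 33 when an array was left out: 9 without control replicate 1, 3 without control replicate 2, 33 without control replicate 3, and 5, 1 and 4 without IL-8 replicates 1, 2 and 3. Of 14 arms listed for muscle (miR-1, miR-133, miR-206, miR-208 and miR-499 forms) 0 were well above background on any array. The labelled cell type is thus not borne out by these miRNAs. Of 6 miRNAs listed for fibroblasts and smooth muscle, miR-21-5p among them, 6 were above background on all arrays and 0 were called. Their summed signal was 43300 to 57860 on control and 57210 to 58500 on IL-8 arrays. Whether they are particular to those cells was not tested, so they do not name the cell type. Of 6 blood, 2 endothelial, 5 epithelial and 3 neural miRNAs 0 were well above background. The part of cell makeup in the miR-210-3p difference was not tested.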

How the data were processed

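The authors deposited linear spot intensities made with Agilent Feature Extraction 10.10.1.1, per the submitters' processing notes. Per the file headers the software subtracted background and a spatial trend, and arrays were not normalized to each other. The deposited value table equalled the software's total probe signal for all 15095 features per array, within a relative tolerance of 0.0001. Spots of a probe were averaged without outlier spots, arrays were divided by the 75th percentile over 264 probes, low values were set to a floor (log2 of -5.45), and log2 was taken. A probe counted as well above background with more than 50% of its spots called so. A miRNA was tested where every array of either group (3 each) had the same probe well above background, which left 167 of 719. Dim values stand close to the background that was subtracted, so its errors weigh most on them. limma 3.58.1 (lmFit, eBayes; R 4.3.3) gave adjusted p-values at a threshold of 0.05 and was tested on simulated data. Named miRNAs are both miR-210 arms, list members called or with the 3 smallest p, and the 5 profiles most like miR-210-3p. miR-3574 and miR-212-3p were added after their values were seen. The members, lists and alternatives were chosen with earlier results of these data known. The number of arrays limits the precision. RefSeq sequences of build GRCr8 matched both miR-210 arms and 651 of the 719 array names.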

Additional observations from a re-analysis of the deposited data

How the results depend on the processing

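miR-210-3p was lower with IL-8, with groups that did not overlap, in each of 21 other settings. As miR-210 was chosen on this difference, and many settings could hardly change it, that count is description and not support. Of the settings, 6 only left out an array. Total probe signal, the brightest probe, probes detected on all arrays, the halved floor and the replicate block each left its value at -0.50. Its log2 difference of -0.50 became -0.60 with a 75th percentile of all probes, -0.56 with quantile normalization, -0.27 without scaling, -0.30 with spike-in scaling, -0.24 with normexp, -0.32 with all its probes and -0.67 with the negative control median subtracted, and it ran from -0.52 to -0.48 when an array was left out. The count of 12 called miRNAs became 0 when the 75th percentile came from all probes (limma, 9 at unadjusted p under 0.05), 52 without scaling (52 up), 35 with spike-in scaling (34 up) and 24 with normexp (1 up), and ran from 1 to 33 when an array was left out. The hypoxia-induced list had 0 calls when it came from all probes (0 at unadjusted p under 0.05), 1 under median scaling, normexp or kept outlier spots, 6 without scaling, 5 with spike-in scaling, and 0 to 2 when an array was left out. The HIF-regulating list had 1 call without scaling. Without scaling and with spike-in scaling, respectively, miR-107-3p stood at 0.11 and 0.09, miR-22-3p at 0.11 and 0.08, and miR-31a-5p at 0.11 and 0.09. The causes were not tested. Above the 99th in place of the 95th percentile of the negative controls lay 74 in place of 98 of 119 miR-210-3p spots, with 59 of 59 from the 16-base probe under both.

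With the replicate block, the replicate numbers of the titles as a term, limma called 3 miRNAs (43 at unadjusted p under 0.05) and 0 of the hypoxia-induced list (5 at unadjusted p under 0.05). The deviations of same-numbered arrays correlated at 0.242, 0.324 and 0.079 across miRNAs. Those of differently numbered arrays ran from -0.595 to 0.352, the highest being control replicate 2 with IL-8 replicate 3. What the numbers stand for is not in the labels, and these values do not settle whether same-numbered samples were paired.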

Other observations

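The software's total gene signal of miR-210-3p, a summary per miRNA that sums the probes it accepts, was 14.46, 22.89 and 25.75 on control arrays 1 to 3 and 20.53, 19.61 and 12.75 on IL-8 arrays 1 to 3. On control array 1 and IL-8 array 3 it equalled the total signal of the 16-base probe alone, and on the other 4 arrays it was close to the sum of both probes. The groups overlapped on this summary. The software called miR-210-3p detected on all 6 arrays and miR-210-5p on none.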
